A study of Mus musculus with 8 samples.

Results

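The 10 genes described here encode collagen chains that do not build the main fibrils of the heart but form beaded filaments, networks and coats on fibrils. They were taken by gene symbol as a fixed list of Col6a1, Col6a2, Col6a3, Col7a1, Col8a1, Col8a2, Col10a1, Col12a1, Col14a1 and Col16a1. All 10 were found among the 22274 genes counted. Collagen VI is a trimer of the α1, α2 and α3 chains, which assembles into beaded microfilaments around cells. Collagens VIII and X are short chains that form networks, and collagen VII makes the anchoring fibrils below epithelia. Collagens XII, XIV and XVI belong to the fibril-associated collagens, which sit on the surface of other fibrils. In the heart, fibroblasts are a main source of such matrix, and TGF-β is the cytokine that drives them towards myofibroblasts.

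RNA-seq was carried out on primary murine cardiac fibroblasts, all of them treated with TGF-β. There were 4 libraries labelled GFP, which received an empty adenovirus (Ad-EV), and 4 libraries labelled OEIRF7, which received an adenovirus with FLAG-tagged IRF7, an interferon regulatory transcription factor. The design text of the series speaks of an adeno-associated virus in place of this adenovirus. The methods place all mouse strains of the study on the C57BL/6 J background, and the age and sex of the mice behind these cultures were not given in the sources used here. The study speaks of biological replicates but states fewer of them than the 4 libraries per group, and the labels do not say which libraries came from separate cultures, so p-values measure the spread between libraries, part of which may be technical. No library without TGF-β was analysed here.

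Total counts per library lay between 24454801 and 28658826. Mouse Irf7 was at 117.9 ± 23.96 CPM (SD, n = 4; counts scaled to a common library size) in the libraries labelled GFP and at 15.2 ± 0.822 CPM in those labelled OEIRF7, lower in 4 of 4. The IRF7 adenovirus is listed under the human gene, so these counts of the mouse gene do not check the labels, and the labels are used as given. The defining fibroblast markers Pdgfra, Thy1, Dcn, Lum, Col1a1 and Tcf21 summed to 5254 to 5562 CPM in the GFP and 4755 to 5154 CPM in the OEIRF7 libraries, with 1 of 6 called higher and 3 lower. Most of this sum was Col1a1 (means of 4561 and 4070 CPM). Tcf21 fell from 58.3 to 23.1 CPM and Pdgfra rose from 121.8 to 145.3 CPM.

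**Figure D1:**
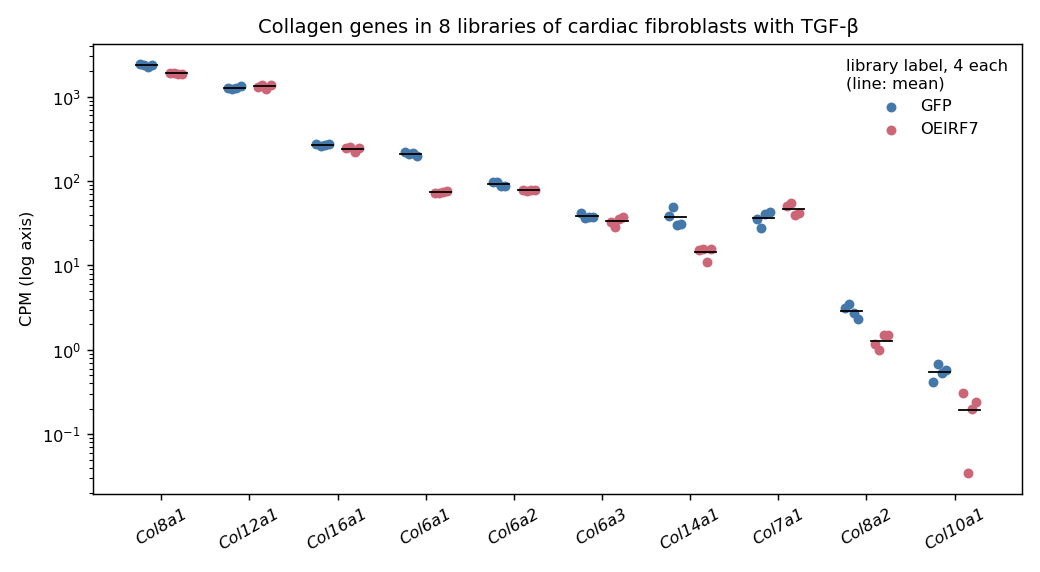
CPM (log axis) of each of the 10 collagen genes, with 1 point per library, blue for GFP and red for OEIRF7, and a line at the mean of 4 libraries. Col6a1, Col14a1, Col8a2 and Col10a1 show the widest separation, while the points of Col6a3, Col7a1 and Col12a1 overlap between the groups.

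To examine how the collagens differed between the groups, the genes were read from a count model over 13533 genes (edgeR's quasi-likelihood test, called at an adjusted p under 0.05). Collagen VI α1, collagen XIV and the low-level chains Col8a2 and Col10a1 fell by over 2-fold in the OEIRF7 libraries. Smaller falls were called for Col6a2, Col6a3, Col8a1 and Col16a1, a rise was called for Col7a1, and Col12a1 was not called. Thus 8 of 10 were called lower and 1 of 10 higher, where 29.9% of all tested genes were called lower, 29% higher and 58.9% in either direction. The 4 members lower by over 2-fold were also those lower by over 1.5-fold, and these limits were passed by 3.89% and 9.64% of the tested genes. All OEIRF7 libraries lay below all GFP libraries for 7 of 10 members, against 27% of the tested genes. The median log2 fold change was -0.29 over the 10 members and 0.0015 over all tested genes. The members were chosen with earlier results of these data known, so these shares and medians describe the list and test no enrichment. In bulk RNA, fewer cells of a type and less RNA per cell cannot be told apart.

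**Figure D2:**
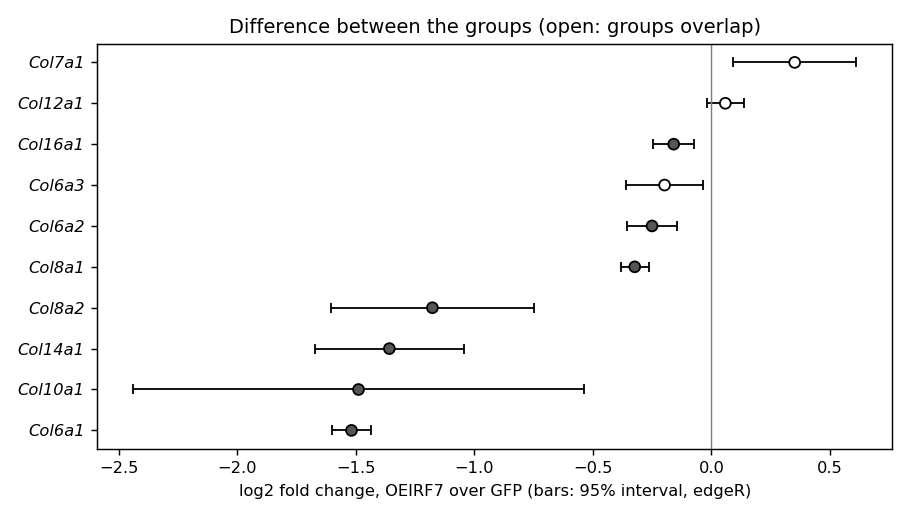
Log2 fold change of each collagen gene in OEIRF7 over GFP libraries, with bars for the 95% interval from edgeR and open points where the groups overlap. Col6a1 has a narrow interval from -1.60 to -1.44, Col10a1 a wide one from -2.44 to -0.54, and the interval of Col12a1 includes 0.

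Sequences before start sites are shown first, and their bearing on the fold changes was not tested. They are those of the neighbouring genes Col6a1 and Col6a2 and of the collagen VIII pair. RefSeq promoters (GRCm38.p6) of 300 bases, 250 before to 50 after a start site, were found for 8 of the 10 genes and gave 9 promoters, 2 of them for Col6a2. No promoter was used here for Col12a1 and Col14a1. Both strands were searched for the AP-1 element with the letters TGANTCA, for the GC box written as GGGCGG, and for the TEAD element, which was spelled GGAATG. The search also took in the TATA box with the spelling TATAAA, and the IRF element, which repeats the letters GAAA after any 2 bases. Only bases before the gene's start in the GENCODE annotation are printed, apart from 30-base windows around 2 matches, of which that of Col6a1 lies within the GENCODE gene. The GC boxes and TEAD letters of the other Col6a2 promoter also lie within its GENCODE gene and are not printed. The printed upstream stretch has 126 bases for Col6a1 and 250 for Col6a2, so this pair is not shown alike. All are written 5′ to 3′ along the gene, with matches on either strand in capitals, and overlapping matches run together.
Col6a1 upstream, chr10:76726169-76726294, minus strand: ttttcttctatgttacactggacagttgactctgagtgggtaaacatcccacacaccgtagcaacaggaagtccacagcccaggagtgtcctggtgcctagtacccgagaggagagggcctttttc
Col6a1 AP-1 window, chr10:76726116-76726145, minus strand: tgctgatgctgTGACTCActcagctttgag
Col6a2 upstream, chr10:76623631-76623880, minus strand: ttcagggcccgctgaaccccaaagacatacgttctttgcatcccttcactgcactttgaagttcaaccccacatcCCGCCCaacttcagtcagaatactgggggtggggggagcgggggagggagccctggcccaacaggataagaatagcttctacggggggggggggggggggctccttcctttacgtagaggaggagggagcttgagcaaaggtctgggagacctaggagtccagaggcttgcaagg
Col8a1 upstream, chr16:57754738-57754987, minus strand: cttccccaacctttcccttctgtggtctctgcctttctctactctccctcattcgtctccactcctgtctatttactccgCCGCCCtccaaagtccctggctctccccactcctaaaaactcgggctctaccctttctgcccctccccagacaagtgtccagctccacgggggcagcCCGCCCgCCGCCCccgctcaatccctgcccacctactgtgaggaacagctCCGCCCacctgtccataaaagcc
Col8a2 upstream, chr4:126286544-126286792, plus strand: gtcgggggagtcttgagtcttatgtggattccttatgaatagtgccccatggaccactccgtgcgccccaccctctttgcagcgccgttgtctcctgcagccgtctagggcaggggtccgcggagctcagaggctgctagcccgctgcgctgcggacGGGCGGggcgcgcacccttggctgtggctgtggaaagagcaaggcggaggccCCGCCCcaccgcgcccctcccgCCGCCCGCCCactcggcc
Col10a1 TATA window, chr10:34389937-34389966, plus strand: ggaagaaaacagTATAAAtactccagggca

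The AP-1 letters, the site of Fos and Jun dimers, were found in the Col6a1 promoter, 90 bases before its RefSeq start, and in no other of the 9. In the whole table, 7.81% of 32851 promoters held them. GC boxes were found in 6 of 9 promoters, those of Col6a2 (both), Col7a1, Col8a1, Col8a2 and Col16a1, against 35.7% of all promoters. The TATA box was found 32 bases before the start of Col10a1 alone (13.6% of all promoters) and the TEAD letters in 1 promoter of Col6a2 (14.7%). The IRF element was in 0 of the 9 promoters and in 3.44% of all. A match of letters is a description of the window and not a bound site.

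The chains of collagen VI changed by unequal amounts. Col6a1 (ENSMUSG00000001119), which encodes the α1 chain, lies on the minus strand at chr10:76708792-76726168 of GRCm38 (GENCODE M21) and its longest coding transcript has 35 exons. It measured 220.4, 210.5, 216.4 and 199.9 CPM in the GFP libraries and 72.3, 73.0, 74.6 and 75.9 CPM in the OEIRF7 libraries. The groups were far apart, with a spread of 4.22% and 2.22% (SD over the mean) within them. Col6a1 was 2.86-fold lower, a log2 fold change of -1.52 with a standard error of 0.038 (edgeR, adjusted p = 1.15e-12). The exact two-sided permutation test gave p = 0.029, the smallest that 4 against 4 libraries allow. It was the member with the smallest adjusted p.

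Col6a2 (ENSMUSG00000020241), the α2 chain, is its neighbour on the same strand at chr10:76595762-76623630, with a gap of 85161 bases that holds 1 annotated gene, the lincRNA Gm35608. The CPM of Col6a2 were 98.6, 98.3, 86.2 and 86.6 in GFP and 79.2, 75.5, 78.1 and 78.0 in OEIRF7. The groups did not overlap but lay close, and the fall was 1.19-fold (log2 fold change -0.25, SE 0.049, edgeR adjusted p = 0.00045). Thus the neighbouring genes of 1 trimer fell by different amounts, which the ratio of the chains further on restates within each library.

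Col6a3 (ENSMUSG00000048126, minus strand at chr1:90765923-90843971) encodes the long α3 chain. It measured 41.9, 36.9, 37.5 and 37.0 CPM in GFP and 32.4, 28.3, 35.9 and 37.2 CPM in OEIRF7. The highest OEIRF7 library lay inside the GFP range. The count model gave a log2 fold change of -0.20 (SE 0.076, 95% interval -0.36 to -0.04, edgeR adjusted p = 0.036), and the exact permutation test gave p = 0.086. The call was lost without GFP library 1 (-0.15, edgeR adjusted p = 0.117), without OEIRF7 library 1 (-0.18, adjusted p = 0.085) and without OEIRF7 library 2 (-0.12, adjusted p = 0.114). On FPKM, fragments scaled for gene length and library size, limma gave a log2 difference of -0.01 (adjusted p = 0.92).

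The proportions of the chain transcripts were next compared per length, on FPKM, which does not measure the chains in the assembled trimer. Summed over the 3 chains, collagen VI was at 83.1, 79.7, 78.6 and 74.1 FPKM in GFP and at 43.4, 40.9, 42.7 and 43.8 FPKM in OEIRF7, without overlap. Col6a1 made up 64.9% ± 1.26 (SD, n = 4) of this sum in GFP and 42.6% ± 1.21 in OEIRF7. The share of Col6a2 was 28.7% ± 1.34 in GFP and 45.6% ± 0.802 in OEIRF7, and that of Col6a3 was 6.40% ± 0.393 and 11.7% ± 1.58. Col6a1 was thus the leading chain transcript in every GFP library and Col6a2 in every OEIRF7 library.

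Within each library the FPKM ratio of Col6a1 to Col6a2 was 2.20, 2.12, 2.47 and 2.27 in GFP and 0.895, 0.951, 0.937 and 0.958 in OEIRF7. The ratio stood above 1 in all GFP and below 1 in all OEIRF7 libraries. Its log2 difference was -1.27 (exact two-sided permutation p = 0.029, adjusted p = 0.034 over the 6 ratios tested). Col6a3 to Col6a1 moved from a geometric mean of 0.0986 to 0.273, a log2 difference of 1.47 with the same exact p. Col6a3 to Col6a2 was at 0.223 and 0.256 with overlapping groups (log2 difference 0.20, exact permutation p = 0.14).

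**Figure D3:**
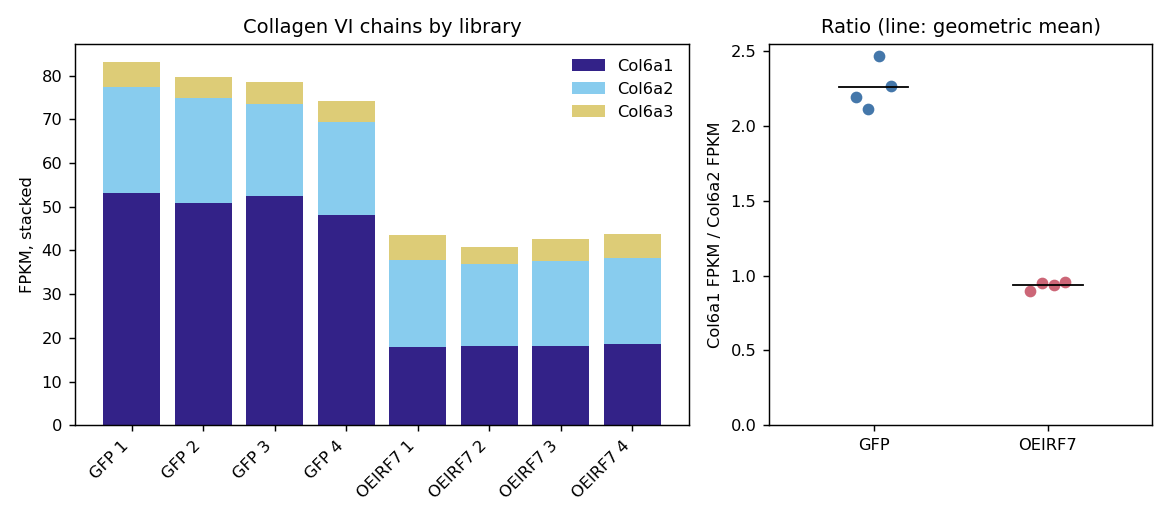
Left, FPKM of Col6a1, Col6a2 and Col6a3 stacked for each of the 8 libraries; right, the ratio of Col6a1 to Col6a2 FPKM in each library, with a line at the geometric mean of 4. The dark Col6a1 segment is shorter in every OEIRF7 library, and the ratio goes from 2.26 in GFP to 0.935 in OEIRF7.

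Among the short-chain network collagens, Col8a1 and Col8a2 encode the chains of collagen VIII, a network collagen of vessel walls and of Descemet's membrane in the eye. Col8a1 (ENSMUSG00000068196, minus strand at chr16:57624258-57754737) was the most abundant of the 10 genes per length in both groups. It measured 2409, 2389, 2249 and 2379 CPM in GFP and 1896, 1929, 1851 and 1855 CPM in OEIRF7. All OEIRF7 libraries were lower, by 1.25-fold (log2 fold change -0.32, SE 0.028, edgeR adjusted p = 1.47e-07).

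Col8a2 (ENSMUSG00000056174, plus strand at chr4:126286793-126314330) was a rare transcript, with 83, 87, 68 and 60 counts in GFP and 30, 29, 38 and 37 counts in OEIRF7. Its groups were also separate, and its fall was larger, 2.26-fold (log2 fold change -1.18, SE 0.20, edgeR adjusted p = 0.00014). The FPKM ratio of Col8a1 to Col8a2 was 657, 579.8, 693 and 885 in GFP and 1394, 1662, 1068 and 1047 in OEIRF7. Every OEIRF7 ratio was higher, with a log2 difference of 0.87 (exact permutation p = 0.029, adjusted p = 0.034). With 1 added to each FPKM, which weighs on the low chain, the difference was 0.06 (exact permutation test, adjusted p = 0.40), and without OEIRF7 library 2 it was 0.74 (adjusted p = 0.057).

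Col10a1 (ENSMUSG00000039462, plus strand at chr10:34389981-34397085) encodes collagen X, which is best known from hypertrophic cartilage. It was at the floor of detection, with 11, 17, 13 and 15 counts in GFP and 8, 1, 5 and 6 counts in OEIRF7. The lowest GFP count was above the highest OEIRF7 count. Its log2 fold change was -1.49 with a wide 95% interval from -2.44 to -0.54 (edgeR adjusted p = 0.0097). The gene overlaps Nt5dc1 on the opposite strand, which rose from 11.8 to 15.7 CPM. The methods name a stranded library kit and the labels another kit. The strand setting of the counting was not given in the sources used here. Of the cartilage markers, Acan, Col2a1 and Sox9 were called lower and Ihh had at most 6 counts in a library. Together these markers summed to 85.6 to 89.3 CPM in GFP and 46.4 to 57.2 CPM in OEIRF7, most of it Sox9, and their part in the result was not tested.

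Collagen VII was the member called higher by the count model, a call that several alternatives did not keep. Col7a1 (ENSMUSG00000025650, plus strand at chr9:108953586-108984875) has 119 exons, the most of the 10 genes. It measured 35.2, 27.4, 41.2 and 42.4 CPM in GFP and 50.2, 54.5, 39.2 and 42.4 CPM in OEIRF7. OEIRF7 libraries 1 and 2 were above the GFP range, and libraries 3 and 4 lay within it. The log2 fold change was 0.35 (SE 0.12, edgeR adjusted p = 0.022), while the exact permutation test gave p = 0.14. DESeq2 gave 0.35 with an adjusted p of 0.071, limma on log2(FPKM + 1) gave 0.31 with an adjusted p of 0.052, and the edgeR call was lost without GFP library 1 (0.33, adjusted p = 0.057) or 2 (0.24, adjusted p = 0.057) and without OEIRF7 library 1 (0.31, adjusted p = 0.065) or 2 (0.26, adjusted p = 0.086). The keratinocyte markers Krt5, Krt14 and Trp63, of cells that make this collagen in skin, had at most 5 counts in any library.

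The 3 fibril-associated collagens each behaved differently. Col12a1 (ENSMUSG00000032332, minus strand at chr9:79598991-79718831), which coats collagen I fibrils, was the second most abundant member per length. Its CPM were 1279, 1219.8, 1251 and 1325 in GFP and 1309, 1363, 1237 and 1377 in OEIRF7, with overlap. The log2 fold change was 0.06 with a 95% interval from -0.02 to 0.14 (edgeR adjusted p = 0.18), so changes of 2-fold lie outside the interval. Limma on FPKM gave a log2 difference of 0.13 (adjusted p = 0.026), and edgeR without OEIRF7 library 3 gave 0.09 (adjusted p = 0.028).

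Col14a1 (ENSMUSG00000022371, plus strand at chr15:55307750-55520803), a chain of similar build that also binds fibrils, measured 38.7, 49.2, 30.4 and 30.7 CPM in GFP and 15.4, 15.8, 10.99 and 15.9 CPM in OEIRF7. It had the widest relative spread in GFP among members above 5 CPM (23.7%), yet the groups were separate. It was 2.56-fold lower (log2 fold change -1.36, SE 0.15, edgeR adjusted p = 1.66e-06). The gene overlaps 3 noncoding or pseudogene entries on the opposite strand.

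Col16a1 (ENSMUSG00000040690, plus strand at chr4:130047840-130099283) measured 278.0, 260.4, 267.7 and 273.4 CPM in GFP and 247.7, 251.6, 223.3 and 244.1 CPM in OEIRF7. The groups did not overlap, but the fall was small (log2 fold change -0.16, SE 0.040, edgeR adjusted p = 0.0031). On FPKM it was -0.12 and not called by limma (adjusted p = 0.086). The FPKM ratio of Col12a1 to Col14a1 went from a geometric mean of 17.4 to 45.2 (log2 difference 1.38) and that of Col12a1 to Col16a1 from 1.98 to 2.35 (log2 difference 0.25). Both differences had an exact permutation p of 0.029 (adjusted p = 0.034), and every OEIRF7 ratio was above every GFP ratio.

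**Figure D4:**
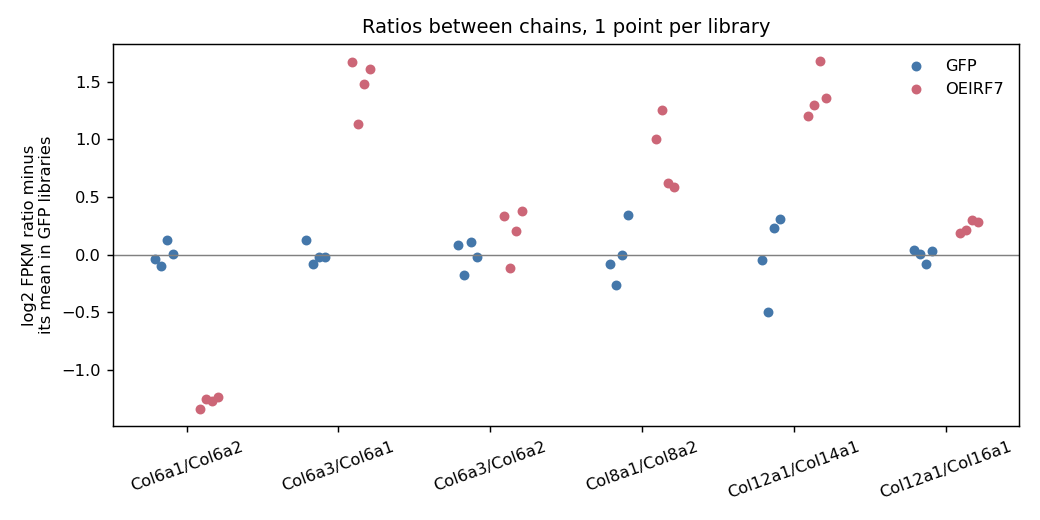
Log2 FPKM ratio of 6 chain pairs in each library, with the mean of the GFP libraries subtracted, 1 point per library. Of the 6 pairs, 5 separate the groups, and Col6a3 to Col6a2 does not.

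Ordered by mean FPKM, the GFP libraries ran from Col8a1 (456.8 FPKM) through Col12a1 (123.3), Col16a1 (62.4), Col6a1 (51.2), Col6a2 (22.7), Col14a1 (7.23), Col6a3 (5.06) and Col7a1 (3.91) to Col8a2 (0.665) and Col10a1 (0.175 FPKM). No neighbours in this order overlapped between libraries. In OEIRF7, Col6a2 (19.5 FPKM) stood above Col6a1 (18.2 FPKM), and Col7a1 (5.09 FPKM) and Col6a3 (5.03 FPKM) overlapped and stood above Col14a1 (3.01 FPKM). The sum of the 10 genes was 733.4 ± 13.9 FPKM in GFP and 615.5 ± 17.4 FPKM in OEIRF7 (SD, n = 4). Col8a1 made up 62.3% of it in GFP and 60.4% in OEIRF7, and Col12a1 16.8% and 21.9%.

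The genes around these collagens were then examined in 4 lists. Of 11 further chains of the same classes, 5 could be tested, of which 1 was called higher and 2 lower (median log2 fold change -0.24), and none of the 3 called exceeded 5 CPM. Of the 7 fibril-forming chains, 1 was called higher, 5 lower and 1 not (median -0.51). Col5a3, a minor chain of collagen V, rose from 17.6 ± 1.94 to 57.7 ± 3.67 CPM (log2 fold change 1.71, edgeR adjusted p = 9.89e-11). Col11a1 (-0.73), Col5a1 (-0.55) and Col3a1 (-0.53) fell, in 4 of 4 OEIRF7 libraries each.

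Of 23 binding partners and receptors, 7 were called higher, 11 lower and 5 not (median -0.16), with 4 higher and 3 lower by over 2-fold. Itga2, a collagen-binding integrin subunit, rose from 7.88 ± 1.17 to 53.0 ± 7.63 CPM (log2 fold change 2.75). Among the other integrin α subunits of the list, Itga1 (log2 fold change -1.28) and Itga11 (-0.94) fell without overlap between the groups. Itga10 (-0.26) was not called. Cspg4, the proteoglycan NG2 that binds collagen VI, rose from 22.4 ± 1.84 to 63.3 ± 7.18 CPM, and Tnxb, a tenascin that binds fibrils, from 49.4 ± 4.998 to 145.2 ± 29.1 CPM. Fmod, the fibril-binding proteoglycan fibromodulin, fell from 76.8 ± 13.6 to 17.5 ± 1.40 CPM (-2.14). The shares called, 7 and 11 of 23, stand beside 29% higher and 29.9% lower among all tested genes.

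Of 16 genes for modification and folding of collagen chains, 8 were called higher, 4 lower and 4 not (median 0.16), none by over 2-fold. Plod1, a lysyl hydroxylase, was 0.50 higher on the log2 scale and P4ha2, a prolyl hydroxylase subunit, 0.34 higher. The collagen chaperone Serpinh1 fell by 0.40 and the lysyl hydroxylase Plod2 fell by 0.36 on the log2 scale. Each of these 4 genes showed no overlap between the groups.

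**Figure D5:**
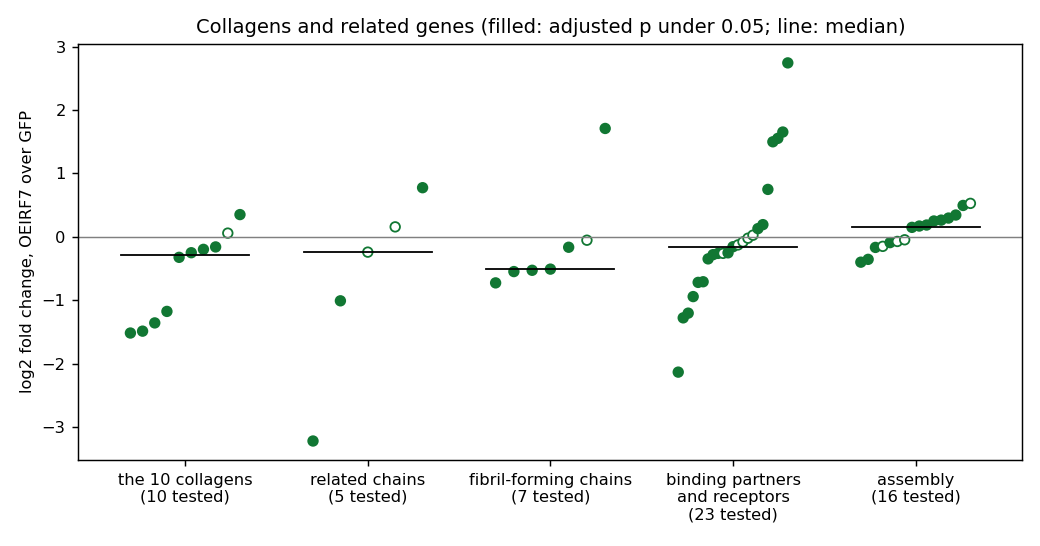
Log2 fold change, OEIRF7 over GFP, of the 10 collagens and of the tested genes of the 4 lists, 1 point per gene, filled where edgeR's adjusted p was under 0.05, with a line at the median. The medians run from -0.51 (fibril-forming chains) to 0.16 (assembly), and partners and receptors spread from -2.14 to 2.75.

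Markers of other cell states moved beside these results. The 4 myofibroblast markers Acta2, Tagln, Cnn1 and Postn were all called lower, and summed to 5392 to 5745 CPM in GFP and 2895 to 3141 CPM in OEIRF7. Mural cell markers summed to 42.2 to 48.6 CPM in GFP and 17.8 to 23.6 CPM in OEIRF7 (1 of 3 tested higher, 1 lower). Most of the mural sum was Notch3, which fell from 41.4 to 13.6 CPM, while Rgs5 rose from 4.17 to 6.92 CPM. Epicardial or mesothelial markers summed to 59.7 to 73.2 and 45.05 to 53.3 CPM (2 of 4 higher, 1 lower). Among them Upk3b fell from 51.8 to 20.8 CPM, while Krt19 rose from 4.75 to 18.5 CPM. Macrophage markers were at 70.6 to 81.9 and 82.9 to 89.5 CPM (2 of 4 higher). Endothelial markers (165 to 173 and 158 to 175 CPM, 1 of 4 higher and 1 lower) and Schwann cell markers (9.11 to 10.7 and 9.03 to 10.9 CPM) overlapped between the groups. Of the cardiomyocyte markers Tnnt2 alone was tested, and it was called lower (11.3 to 7.78 CPM). Myh6, Actc1 and Nppa had at most 3 counts in any library. The cardiomyocyte sum was 9.50 to 13.3 CPM in GFP and 7.14 to 9.03 CPM in OEIRF7. The part of these markers in the collagen results was not tested.

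The genes with the profile most like that of Col6a1 over the 8 libraries, by the distance between centred log2 CPM among 10318 genes above 5 CPM, were Hdgf (0.126), Adamts9 (0.141), Fndc1 (0.202), Nacc2 (0.228) and Prag1 (0.229). Hdgf, a growth factor, went from 274.0 ± 9.25 to 97.0 ± 2.96 CPM, and the protease gene Adamts9 from 44.8 ± 1.93 to 15.8 ± 0.842 CPM. No other member was among these 5.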

How the data were processed

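The authors trimmed reads with Trimmomatic, mapped them to GRCm38 with HISAT2 and counted them per gene with HTSeq-count. The raw counts were deposited, together with FPKM that the authors computed with Cufflinks and rounded to 2 decimals. Tool versions and the strand setting were not given in the sources used here. For RNA extraction and library building, the labels name other kits than the methods do. The authors' own group means, fold changes and p-values were not used. In the deposited symbols, 121 held GFP in place of other letters and were restored by Ensembl identifier.

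Counts of all 8 libraries were compared in R 4.3.3 with edgeR 4.0.16 (filterByExpr, TMM scaling with factors from 0.989 to 1.01, glmQLFTest, Benjamini-Hochberg over 13533 genes). CPM are TMM-scaled. FPKM ratios were compared by exact two-sided permutation of the libraries. Replicate pairs all differed by more than sampling noise. Genes of few counts, such as Col10a1, have the least precision. Alternatives were DESeq2 1.42.0, limma 3.58.1 on log2(FPKM + 1) or log2(FPKM + 0.1) at a mean over 0.1 FPKM or unfiltered, other scalings and count filters, the replicate number as a block, and leaving out each library. On that FPKM scale the change of low genes is understated. The tests were tested on simulated data.

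The members and lists were chosen with earlier results of these data known. Named genes are the 10 members, Irf7, up to 4 called genes per list with the largest fold change above 5 CPM, and the 5 nearest profiles to the member with the largest fold change above 5 CPM. Marker genes, Nt5dc1, Itga1, Itga10 and Itga11 are named for the result they bear on. Protein features were not analysed here.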

Additional observations from a re-analysis of the deposited data

Results flagged for a closer look

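In 36 groups of 4 values, 2 held a library far from the other 3, where chance flags about 1 in 20. Col6a3 stood at 41.9 CPM in GFP library 1, while the other GFP libraries lay between 36.9 and 37.5 CPM. Col14a1 stood at 10.99 CPM in OEIRF7 library 3, while the others lay between 15.4 and 15.9 CPM. Without GFP library 1 the fall of Col6a3 was -0.15 (log2, edgeR adjusted p = 0.117). The fall of Col14a1 stayed between -1.44 and -1.20 whichever library was left out.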

How the results depend on the processing

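Of 303 values recomputed under alternatives, 267 kept their direction and their side of the threshold (or, for counts, lay within 1.5 times). Another 30 were no longer past the threshold or fell as counts, 6 newly passed or rose, and 0 reversed. The 30 include the ratios past the threshold in the main test, taken over paired differences. There the exact sign-flip test with 4 pairs cannot go below p = 0.125, so their loss was fixed in advance. The cause of the other changes was not tested. Members called lower numbered 6 to 8, and members called higher were 0 by DESeq2 and 0 to 2 when a library was left out. Col6a3 was -0.17 with library size alone (edgeR adjusted p = 0.062), -0.014 by limma on log2(FPKM + 1) with or without the filter and -0.018 on log2(FPKM + 0.1), and -0.25 to -0.12 with a library left out. Col7a1 was 0.35 by DESeq2, 0.31 by limma with a pseudocount of 1 (filtered or not) and 0.38 with 0.1, called by none of these 4 fits (adjusted p from 0.051 to 0.091), and 0.24 to 0.43 with a library left out. By the same limma fits Col12a1 was 0.13 in all 3 and called, as the 1 member called higher there, and Col16a1 was -0.12 in all 3 and not called; Col12a1 was 0.038 to 0.089 with a library left out. The log2 ratio of Col8a1 to Col8a2 was 0.063 with 1 added to FPKM and 0.74 to 0.98 with a library left out, and that of Col6a3 to Col6a2 0.14 to 0.30, with an adjusted p of 0.034 by the exact permutation test without OEIRF7 library 2. Col10a1 gave no value at a minimum of 10 counts in every library, since its counts are below it. Depth limits Col10a1 and Col8a2 most.

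With the replicate number as a block, 4057 genes were called higher and 4154 lower, against 3924 and 4045 without it. Deviations of same-numbered libraries correlated at 0.079, 0.095, 0.138 and 0.104, not all above 0.1, so the numbers were not taken to pair the libraries, although each library correlated best with its own number. Over paired differences the log2 ratios were -1.27 (Col6a1 to Col6a2), 1.47 (Col6a3 to Col6a1), 0.87 (Col8a1 to Col8a2), 1.38 (Col12a1 to Col14a1) and 0.25 (Col12a1 to Col16a1), where the exact sign-flip test with 4 pairs cannot go below p = 0.125. The block changed no call of a member in edgeR.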
